A study of Mus musculus with 4 samples.

Results

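The circadian clock and its output genes were examined in mouse liver after repeated dosing with JIB-04, a small-molecule inhibitor of the Jumonji histone demethylases. The group was defined by name as 30 genes, all 30 of which were in the deposited table of 56748 genes. Liver RNA came from 2 NSG mice that received JIB-04 by mouth (5 doses of 55 mg/kg, 2 per week) and from 2 untreated NSG mice. The labels number 2 libraries per group without stating that each is a separate mouse. They are read here as 1 mouse each (n = 2 per group). The p-values rest only on the spread between these libraries, which is estimated for each gene with help from the other genes. All 4 mice were NSG, an immunodeficient strain without mature B, T or natural killer cells, and the label for genotype is WT in both groups. The control mice were untreated, and no vehicle is named for them. The time of day of collection, the time since the last dose and the age of the mice are not stated, so time of day and treatment cannot be told apart.

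The clock of a liver cell is a feedback loop of transcription. CLOCK or NPAS2 pairs with BMAL1, encoded by Arntl, and switches on genes that carry an E-box, among them the Per and Cry genes, whose proteins then shut the activators off. A further loop runs through the nuclear receptors REV-ERB (Nr1d1, Nr1d2), which repress, and ROR (such as Rora and Rorb), which activate, Arntl and other genes with a ROR element. Outputs include the PAR bZIP factors DBP, TEF and HLF, which act at D-box sites opposite the repressor NFIL3 and are known in mouse liver for their effect on drug metabolism genes. In mouse liver the RNA of Arntl, Npas2, Clock, Cry1 and Nfil3 peaks in the late night or around dawn, that of Nr1d1, Nr1d2, Dbp, Ciart, Tef, Hlf and Per3 in the light phase, and that of Per1, Per2, Bhlhe41, Usp2, Noct and Wee1 around dusk.

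All 4 livers held much RNA of the light phase genes and of most dusk genes, with very little Arntl and Npas2. No clock gene passed the test between JIB-04 and untreated liver. The largest fitted differences were lower values in JIB-04 liver of Usp2, Hlf, Per1, Tef, Nfil3, Cry1 and Ciart, each 0.634 to 0.724 times the untreated mean. Among tested clock genes Nr1d1, Bhlhe40, Dbp and Wee1 differed most between the JIB-04 mice, each by more than between the groups. Other clock genes, among them Nr1d2, Fbxw11 and Csnk1d, also differed more between the JIB-04 mice than between the groups.

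The values are FPKM, fragments per kilobase of gene length scaled to the size of the library, a unit that allows levels of different genes to be compared. From 36469514 to 43283827 reads per library could be recovered from them. Genes with a mean of at least 1 FPKM over the 4 libraries were tested with limma on log2(FPKM + 1), two-sided, and a gene was called at a Benjamini-Hochberg adjusted p under 0.05. Hepatocyte markers were abundant in every library. Of 6 markers of B, T and natural killer cells 4 were at 0 in all libraries. The summed level of the 10 hepatocyte markers, mostly albumin, was 45849.1 and 38118.1 FPKM in JIB-04 1 and 2, against 65442.5 and 63000.5 in untreated 1 and 2, with 0 of the 10 called and all 10 fitted differences below 0. Markers of macrophages summed to 236 and 287 FPKM in JIB-04 liver, against 309 and 259 in untreated liver, and those of endothelial cells to 65.2 and 68.7, against 81.8 and 63.1. Stellate cell markers summed to 41.7 and 48.1 FPKM in JIB-04 liver, against 63.1 and 54.3 in untreated liver, bile duct markers to 36.1 and 43.8, against 40.1 and 34.4, and red cell and neutrophil markers, nearly all haemoglobin, to 660 and 1737, against 2779 and 1713. The neutrophil marker S100a8 had 36.3 and 63.0 FPKM in JIB-04 liver, against 6.68 and 2.40 in untreated liver, without overlap (limma adjusted p = 0.131), while S100a9, its partner protein, had 7.51 and 8.45, against 18.7 and 4.01. The part of these levels in the clock values was not tested, and in bulk RNA fewer cells of a type and less RNA per cell cannot be told apart.

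Of the 30 clock genes 24 passed the filter on low values, and limma called 0 of the 24 higher and 0 lower. Over all 10819 genes tested it called 232 (2.14%), with 165 higher (1.53%) and 67 lower (0.619%), or 127 and 84 after rescaling without the 50 most abundant and the mitochondrial genes. Those counts were 28 and 2 without JIB-04 1, 22 and 1 without JIB-04 2, 102 and 54 without untreated 1, and 107 and 48 without untreated 2. At an unadjusted p under 0.05 there were 6 of 24 clock genes, all 6 lower in JIB-04 liver, where 15.5% of all tested genes had such a p and 6.47% had one in the lower direction. With voom, limma's method for read counts, applied to the recovered reads, Hlf, Per1 and Usp2 were called lower and no clock gene higher. The fitted difference was below 0 for 20 of the 24 (83.3%), against 48.6% of all tested genes. Their median log2 difference was -0.25, against 0.0068 over all tested genes. All tested hepatocyte (10), macrophage (6) and stellate cell (5) markers were also below 0, with medians of -0.22, -0.14 and -0.24. So were 4 of 6 endothelial markers, 4 of 5 red cell and neutrophil markers and 0 of 1 bile duct marker. Genes of a shared loop are not independent of each other. Values of the groups did not overlap for 13 of the 24, with 12 lower and 1 higher in JIB-04 liver. Over all tested genes 46.4% did not overlap, 21.8% being lower and 24.6% higher. With 2 against 2 libraries the smallest p of an exact permutation test, two-sided, is 0.333, so that test cannot reach 0.05 for a single gene.

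**Figure D1:**
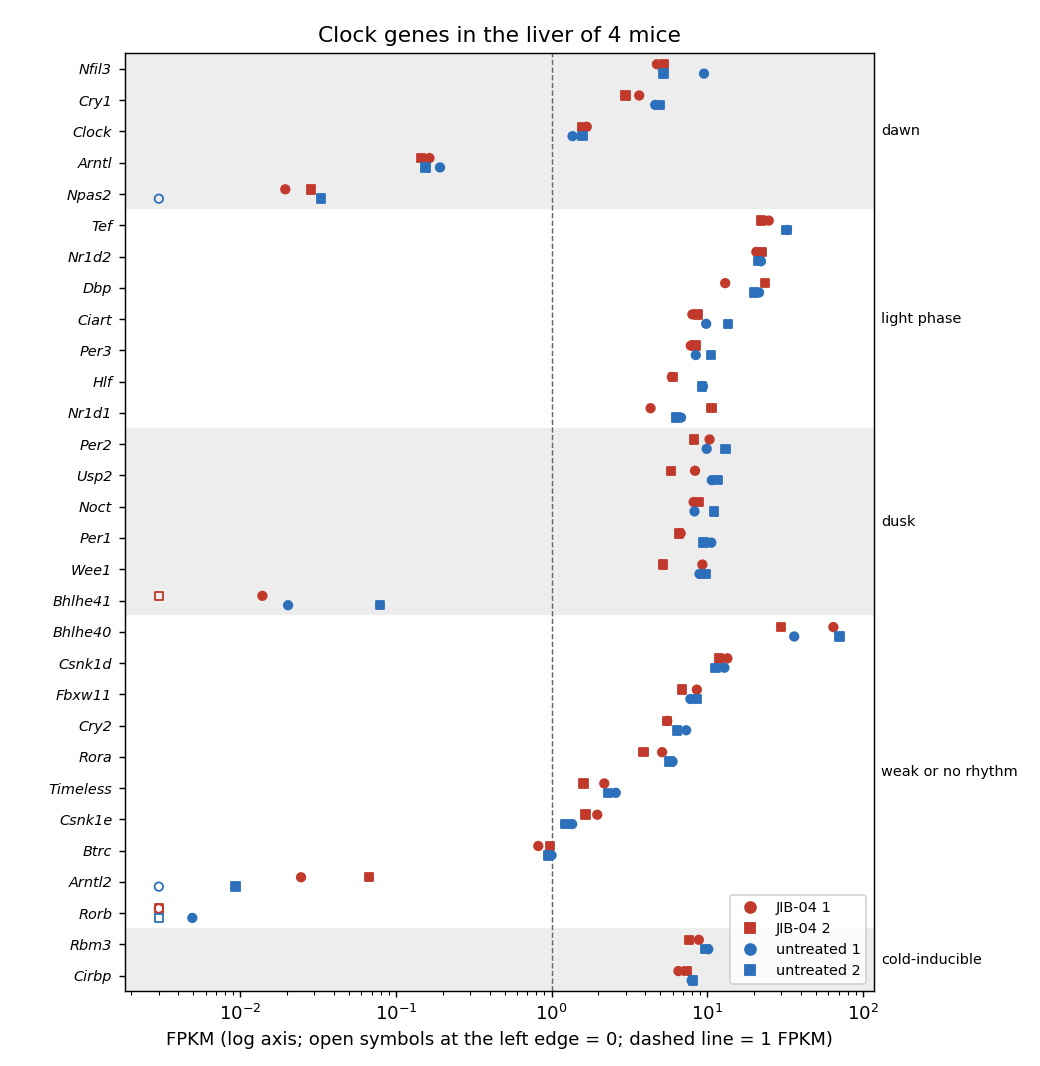
FPKM of the 30 clock genes in each library on a log axis, JIB-04 mice in red above untreated mice in blue, grouped by the time of day at which the RNA is known to peak in mouse liver; circles are mouse 1 and squares mouse 2. Arntl and Npas2 lie below 1 FPKM in all 4 mice, while the light phase genes lie between 4.33 and 32.6 FPKM.

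Promoter sequence is shown for the clock genes with the lowest p that hold a searched motif, because the E-box, D-box and ROR element are the sites through which the loop is wired, and for Arntl, the gene on which the REV-ERB and ROR proteins act. Sequences are RefSeq windows of build GRCm38.p6, 250 bases before to 50 bases after a transcription start, whereas the deposited coordinates are on GRCm39. Of the 30 genes 24 had a window. Per2, Wee1, Bhlhe40, Csnk1d, Btrc and Rbm3 had none and were not searched. Per1, Tef and Arntl had 2 windows each. For Per1 and Tef the first that held a searched motif is printed, and for Arntl the one with most ROR elements. The other Per1 window held no searched motif. Capitals mark the motif in each printed window.
Hlf, chr11:90390868-90391167, minus strand, CRE: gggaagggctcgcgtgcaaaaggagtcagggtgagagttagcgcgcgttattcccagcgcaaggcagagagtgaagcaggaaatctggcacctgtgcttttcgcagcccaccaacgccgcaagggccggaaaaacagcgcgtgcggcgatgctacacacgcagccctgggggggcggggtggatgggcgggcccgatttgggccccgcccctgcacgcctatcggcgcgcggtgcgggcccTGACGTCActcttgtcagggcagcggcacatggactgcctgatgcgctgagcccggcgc
Per1, chr11:69098699-69098998, plus strand, E-box: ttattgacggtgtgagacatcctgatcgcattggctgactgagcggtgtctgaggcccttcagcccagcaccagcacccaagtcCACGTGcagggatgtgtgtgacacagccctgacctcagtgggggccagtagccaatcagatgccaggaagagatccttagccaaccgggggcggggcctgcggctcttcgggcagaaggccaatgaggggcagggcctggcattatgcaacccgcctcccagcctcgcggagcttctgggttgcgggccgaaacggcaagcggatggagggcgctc
Tef, chr15:81802423-81802722, plus strand, E-box: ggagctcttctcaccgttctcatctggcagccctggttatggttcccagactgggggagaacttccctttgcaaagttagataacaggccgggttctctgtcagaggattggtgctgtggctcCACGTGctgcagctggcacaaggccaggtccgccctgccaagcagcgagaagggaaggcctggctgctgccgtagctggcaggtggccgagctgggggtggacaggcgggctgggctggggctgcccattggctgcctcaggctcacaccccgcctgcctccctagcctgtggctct
Cry1, chr10:85185005-85185304, minus strand, E'-box then E-box: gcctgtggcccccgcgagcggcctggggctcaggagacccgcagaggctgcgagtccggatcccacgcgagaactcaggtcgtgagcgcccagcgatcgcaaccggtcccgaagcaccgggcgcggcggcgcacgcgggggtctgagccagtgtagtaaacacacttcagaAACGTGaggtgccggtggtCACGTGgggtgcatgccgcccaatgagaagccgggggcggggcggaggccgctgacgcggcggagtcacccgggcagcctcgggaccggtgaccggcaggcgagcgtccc
Arntl, chr7:113207261-113207560, plus strand, ROR elements: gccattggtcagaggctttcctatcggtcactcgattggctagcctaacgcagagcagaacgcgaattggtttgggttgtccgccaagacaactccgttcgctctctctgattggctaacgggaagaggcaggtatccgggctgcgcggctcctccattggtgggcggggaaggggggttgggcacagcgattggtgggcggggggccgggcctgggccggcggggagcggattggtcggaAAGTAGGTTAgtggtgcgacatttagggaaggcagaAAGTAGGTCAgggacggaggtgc

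Motifs were searched on both strands as CACGTG for the E-box, CACGTT for the E'-box, TTANGTAA for the D-box, TGACGTCA for the CRE and the ROR element in the form of the Arntl capitals; the CRE is the site of cAMP-responsive factors. None of the matches in these windows overlapped another. An E-box was in a window of 5 of the 24 genes (Cry1, Ciart, Tef, Per1 and Bhlhe41), against 8.09% of all 27025 genes with a window. Ciart held 3 E-boxes, at 116, 58 and 44 bases before its start. The E'-box was in 4 genes (Cry1, Nr1d1, Cry2 and Rorb), against 5.44% of all genes. The D-box was in Per3, Rorb and Timeless, against 2.72% of all genes, with 2 copies in Per3 at 205 and 158 bases before the start. In the form searched, which covers both Arntl copies, the ROR element was in Arntl alone, against 0.803% of all genes. Its copies begin 9 bases before and at base 28 after the start printed here. Arntl is a known target through this element, so the match adds no separate support. The CRE was in Hlf alone, against 2.03% of all genes. A match describes the letters in the window and is not a measured binding site. The Usp2 window held none of the motifs, so Cry1, next in the order of p, is printed.

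The activators CLOCK, BMAL1 and NPAS2 had low RNA levels, each below the Period and cryptochrome genes. Arntl, which encodes BMAL1, had 0.164 and 0.145 FPKM in JIB-04 1 and 2, against 0.192 and 0.155 in untreated 1 and 2, from 40 to 53 reads per library. The groups overlapped, and Arntl was under the filter in both. Clock, which encodes its bHLH-PAS partner, had 1.68 and 1.57 FPKM in JIB-04 liver, against 1.36 and 1.58 in untreated liver, with a log2 difference of 0.09 (SE 0.135, limma adjusted p = 0.833). The Clock interval of -0.23 to 0.41 (95%) bounds the difference on that scale. Npas2, which can stand in for Clock, had 4 and 5 reads in JIB-04 1 and 2, against 0 and 6 in untreated 1 and 2. A count of 0 allows up to 3 reads, or 0.0171 FPKM in untreated 1 for Npas2. Arntl2, a paralog of Arntl, had 6 and 14 reads in JIB-04 liver, against 0 and 2 in untreated liver, so its values did not overlap but stayed at or below 0.0670 FPKM.

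The Period genes, whose proteins form the repressor complex with CRY, lay between 6.60 and 13.1 FPKM. Per1 (ENSMUSG00000020893, GRCm39 chromosome 11, 68986043 to 69000786, plus strand) had 6.76 and 6.60 FPKM in JIB-04 1 and 2, against 10.6 and 9.45 in untreated 1 and 2. Both JIB-04 values lay under both untreated values. The Per1 log2 difference was -0.52 (SE 0.121, limma adjusted p = 0.0910), and with voom on recovered reads the Per1 adjusted p was 0.0272, the lowest of 0.0272 to 0.379 over 15 alternative analyses (other scalings, filters and tests, and each library left out). Per2 had 10.4 and 8.26 FPKM in JIB-04 liver, against 9.93 and 13.1 in untreated liver, and the groups overlapped (log2 difference -0.28, adjusted p = 0.528). Per3 had 7.85 and 8.42 FPKM in JIB-04 liver, against 8.45 and 10.6 in untreated liver, a narrow separation (log2 difference -0.20, adjusted p = 0.590). Summed over the 3 genes, Period RNA was 25.0 and 23.3 FPKM in JIB-04 1 and 2, against 29.0 and 33.2 in untreated 1 and 2, with no overlap.

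The cryptochromes, partners of PER in the repressor complex, had lower mean levels than the Period genes. Cry1 (ENSMUSG00000020038, chromosome 10, 84967564 to 85020928, minus strand) had 3.66 and 2.99 FPKM in JIB-04 1 and 2, against 4.64 and 4.99 in untreated 1 and 2. The Cry1 groups did not overlap, and the log2 difference was -0.43 (SE 0.134, limma adjusted p = 0.185, from 0.142 to 0.525 over the alternatives). Cry2 had 5.54 and 5.52 FPKM in JIB-04 liver, against 7.33 and 6.39 in untreated liver, also without overlap (log2 difference -0.27, adjusted p = 0.377).

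Further repressors of CLOCK and BMAL1 differed from each other in how steady they were. Ciart, also called Chrono, had 8.04 and 8.71 FPKM in JIB-04 liver, against 9.85 and 13.6 in untreated liver (log2 difference -0.43, SE 0.164, limma adjusted p = 0.282), and the Ciart difference was -0.21 without untreated 2. Its groups did not overlap. Bhlhe40, which encodes DEC1 and is also induced by hypoxia, feeding and other stimuli, had the highest mean level of the 30 genes, at 64.7 and 29.9 FPKM in JIB-04 1 and 2, against 36.2 and 70.9 in untreated 1 and 2. Each group thus held a low and a high mouse, and the 95% interval of the Bhlhe40 log2 difference ran from -1.91 to 1.52 around -0.20, which turned to 0.34 without JIB-04 2 and to 0.28 without untreated 2. Bhlhe41, which encodes DEC2, had 4 and 0 reads in JIB-04 liver, against 5 and 20 in untreated liver, too few for a comparison. The count of 0 in JIB-04 2 allows up to 3 reads, or 0.0122 FPKM for Bhlhe41.

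Of the nuclear receptors, Nr1d1 (ENSMUSG00000020889, chromosome 11, 98658758 to 98666159, minus strand), which encodes REV-ERB alpha, had 4.33 and 10.7 FPKM in JIB-04 1 and 2, against 6.80 and 6.31 in untreated 1 and 2. The JIB-04 mice bracketed the untreated mice, at 2.47 times as much RNA in JIB-04 2 as in JIB-04 1. Nr1d2, which encodes REV-ERB beta, had 20.7 and 22.4 FPKM in JIB-04 liver, against 22.1 and 21.2 in untreated liver. The Nr1d2 log2 difference of -0.0079 (SE 0.118, limma adjusted p = 0.987) had a 95% interval of -0.29 to 0.27, while that of Nr1d1 ran from -1.12 to 1.25 around 0.06, a value that turned to -0.50 without JIB-04 2. Rora, an activator at the same elements, had 5.14 and 3.89 FPKM in JIB-04 liver, against 5.996 and 5.735 in untreated liver, without overlap (log2 difference -0.33, adjusted p = 0.356). Rorb, a receptor of retina and brain, had 0 and 0 reads in JIB-04 liver, against 2 and 0 in untreated liver. The count of 0 allows up to 3 reads per library, or 0.00632 and 0.00738 FPKM of Rorb in JIB-04 1 and 2.

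The PAR bZIP factors differed in how far apart the JIB-04 mice lay. Hlf (ENSMUSG00000003949, chromosome 11, 90227362 to 90281721, minus strand), whose promoter window is printed above, had 5.93 and 6.04 FPKM in JIB-04 1 and 2, against 9.40 and 9.27 in untreated 1 and 2. These were close within each group and apart between them. The Hlf log2 difference was -0.57 (SE 0.113, 95% interval -0.84 to -0.30), with a limma adjusted p of 0.0617, the lowest of the 24. Hlf passed at 0.0417 when only genes with at least 5 FPKM were tested and at 0.0133 with voom, the lowest of 0.0133 to 0.277 over the alternatives. Tef (ENSMUSG00000022389, chromosome 15, 81686622 to 81711064, plus strand) had 24.9 and 22.2 FPKM in JIB-04 liver, against 32.6 and 32.3 in untreated liver. The Tef log2 difference was -0.45 (SE 0.122, adjusted p = 0.136, from 0.0664 to 0.410 over the alternatives), with no overlap. Dbp (ENSMUSG00000059824, chromosome 7, 45354512 to 45359627, plus strand) had 13.1 and 23.6 FPKM in JIB-04 1 and 2, against 21.53 and 19.96 in untreated 1 and 2. As for Nr1d1, the untreated mice lay between the JIB-04 mice, and the Dbp log2 difference was -0.22 (SE 0.278, adjusted p = 0.789), turning to 0.18 without JIB-04 1. Together Dbp, Tef and Hlf came to 43.9 and 51.8 FPKM in JIB-04 1 and 2, against 63.5 and 61.6 in untreated 1 and 2.

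Nfil3, the repressor at D-box sites, had 4.76 and 5.28 FPKM in JIB-04 1 and 2, against 9.54 and 5.25 in untreated 1 and 2. Untreated 1 stood apart from the other 3 mice, and the Nfil3 log2 difference was -0.43 with all libraries and -0.056 without untreated 1. Per library the ratio of Dbp to Nfil3 was 2.75 and 4.47 in JIB-04 1 and 2, against 2.26 and 3.80 in untreated 1 and 2.

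Among outputs that peak around dusk, Usp2 (ENSMUSG00000032010, chromosome 9, 43978318 to 44006924, plus strand), a ubiquitin protease that acts on clock proteins, had 8.36 and 5.84 FPKM in JIB-04 1 and 2, against 10.7 and 11.7 in untreated 1 and 2. The groups did not overlap, and the Usp2 log2 difference of -0.61 (SE 0.170, limma adjusted p = 0.148) was the most negative of the 24 with all libraries. It was -0.38 without JIB-04 2, when that of Hlf was -0.58. With voom the Usp2 adjusted p was 0.0403, the lowest of 0.0403 to 0.459 over the alternatives. Wee1, a kinase that holds back mitosis, had 9.31 and 5.20 FPKM in JIB-04 1 and 2, against 8.93 and 9.86 in untreated 1 and 2, so JIB-04 2 was low while JIB-04 1 lay among the untreated mice (log2 difference -0.38, adjusted p = 0.571). Noct, which encodes the NADPH phosphatase nocturnin, had 8.19 and 8.82 FPKM in JIB-04 liver, against 8.29 and 11.05 in untreated liver, with overlap (adjusted p = 0.710).

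Among the kinases and ubiquitin ligases that time the breakdown of PER, the casein kinases did not share a pattern: the groups overlapped for Csnk1d and not for Csnk1e. Csnk1d, casein kinase 1 delta, had 13.49 and 11.95 FPKM in JIB-04 liver, against 12.9 and 11.3 in untreated liver (log2 difference 0.07, 95% interval -0.24 to 0.37). Csnk1e, casein kinase 1 epsilon, had 1.97 and 1.65 FPKM in JIB-04 liver, against 1.36 and 1.23 in untreated liver. It was the single clock gene above its untreated values in both JIB-04 mice among those tested (log2 difference 0.29, SE 0.138, limma adjusted p = 0.386). Fbxw11, an F-box protein of the ligase that recognises phosphorylated PER, had 8.58 and 6.89 FPKM in JIB-04 liver, against 7.80 and 8.58 in untreated liver. Its paralog Btrc, with 0.822 and 0.974 FPKM in JIB-04 liver, against 0.9999 and 0.949 in untreated liver, fell just short of the filter. Timeless, which in mammals acts mainly at replication forks, had 2.18 and 1.61 FPKM in JIB-04 liver, against 2.59 and 2.30 in untreated liver (adjusted p = 0.497).

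Cirbp and Rbm3 encode RNA-binding proteins that are induced by mild cold and follow the daily rhythm of body temperature. Cirbp had 6.54 and 7.39 FPKM in JIB-04 liver, against 7.95 and 8.12 in untreated liver, and Rbm3 had 8.84 and 7.62, against 10.2 and 9.79. Both were without overlap, and neither was called (limma adjusted p = 0.554 for Cirbp and 0.409 for Rbm3).

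**Figure D2:**
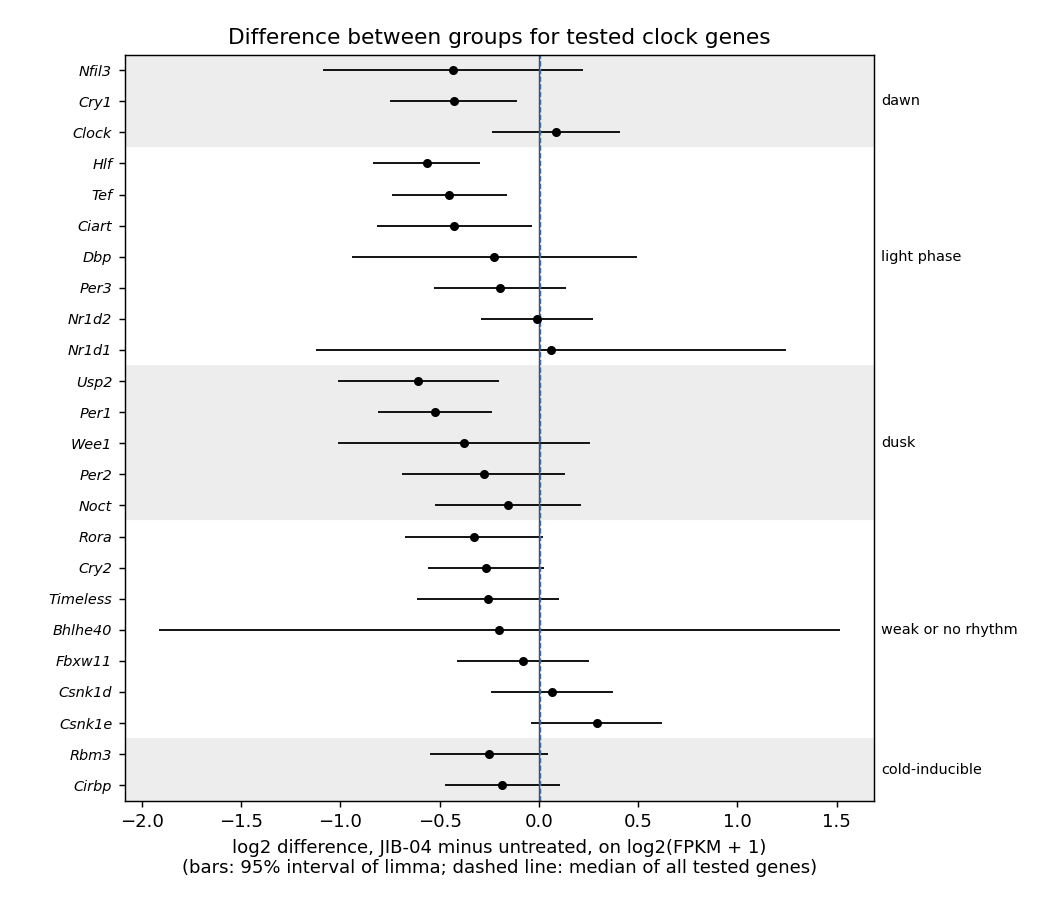
Log2 difference of JIB-04 minus untreated liver on the log2(FPKM + 1) scale for the 24 tested clock genes, with the 95% interval of limma as bars and the median of all tested genes (0.0068) as a dashed line. Hlf, Per1, Tef, Usp2, Cry1 and Ciart have intervals that lie below 0, and Bhlhe40 and Nr1d1 have the widest.

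By known phase, the median difference of the tested genes was below 0 in each class, while Clock of dawn (0.09) and Nr1d1 of the light phase (0.06) lay above 0. Arntl and Npas2 of dawn were under the filter, and with no filter the dawn median was -0.023. A shift in phase was not tested. The median log2 difference was -0.43 for the 3 tested genes of dawn (Clock, Cry1 and Nfil3), -0.22 for the 7 of the light phase and -0.38 for the 5 of dusk, against 0.0068 over all tested genes. The fitted difference was below 0 for 2 of 3, 6 of 7 and 5 of 5 of them. The dawn value rests on Nfil3 and Cry1, and was -0.056 without untreated 1. Without JIB-04 2 the light phase median was -0.48 and the dusk median -0.20. No class had a called gene, and no test of the classes was made.

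Of 4 ratios that set Nr1d1, Dbp or Per2 against Arntl or Nr1d1, 3 placed the JIB-04 mice on either side of the untreated mice. Each of these 3 holds Nr1d1 or Dbp, whose own values did the same, so they add no separate support. Arntl had only 40 to 53 reads per library. The ratio of Nr1d1 to Arntl was 26.3 and 73.7 in JIB-04 1 and 2, against 35.4 and 40.7 in untreated 1 and 2. The ratio of Dbp to Arntl was 79.4 and 163 in JIB-04 1 and 2, against 112 and 129 in untreated 1 and 2. For Per2, which peaks later than Nr1d1, the ratio to Nr1d1 was 2.39 and 0.774 in JIB-04 1 and 2, against 1.46 and 2.08 in untreated 1 and 2. The ratio of Per2 to Arntl did not do so, at 63.0 and 57.0 in JIB-04 1 and 2, against 51.7 and 84.9 in untreated 1 and 2, and neither did that of Dbp to Nfil3 given above. JIB-04 1 thus had the lowest and JIB-04 2 the highest Nr1d1 relative to Arntl of the 4 mice, while Per2 relative to Nr1d1 was highest in JIB-04 1 and lowest in JIB-04 2.

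**Figure D3:**
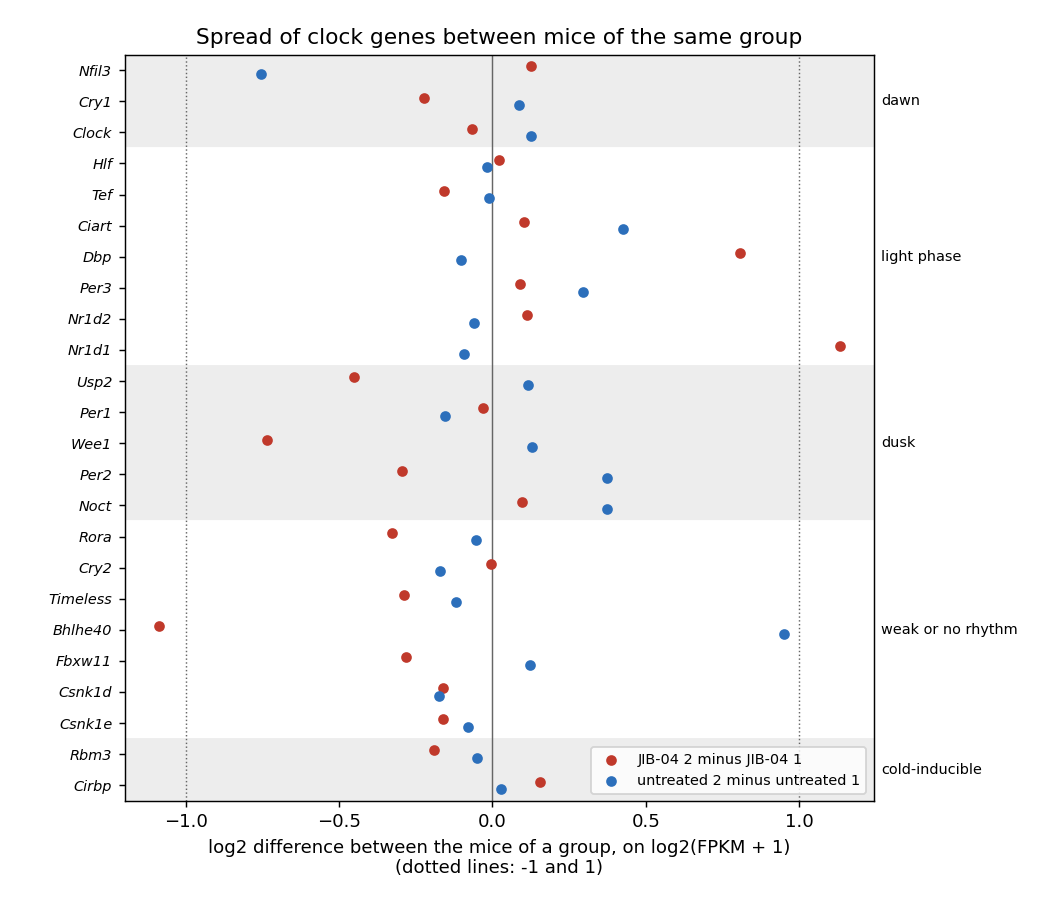
Log2 difference between the mice of each group (mouse 2 minus mouse 1) on the log2(FPKM + 1) scale for the 24 tested clock genes, JIB-04 in red and untreated in blue. Nr1d1 (1.13) and Dbp (0.81) lie to the right and Bhlhe40 (-1.09) and Wee1 (-0.73) to the left in the JIB-04 pair; Bhlhe40 (0.95) and Nfil3 (-0.75) are farthest out in the untreated pair.

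The spread between mice of a group was concentrated in a few clock genes. Between the JIB-04 mice 2 of the 24, Nr1d1 and Bhlhe40, differed by more than 1 on the log2 scale, which held for 1.22% of all tested genes. Between the untreated mice 0 of the 24 did, against 1.27% of all tested genes. The median absolute difference of the 24 was 0.162 between the JIB-04 mice and 0.121 between the untreated mice, close to 0.159 and 0.130 over all tested genes. Hlf, Per1 and Cry2 differed by at most 0.03 between the JIB-04 mice, the same pair in which Nr1d1 differed by 1.13 and Dbp by 0.81.

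Reads of some clock genes can come from other genes, since no strand setting is stated for the counting. In GENCODE M21 exons of Sphk2 cover 18.0% of the exonic bases of Dbp from the opposite strand, and those of Thra cover 8.55% of Nr1d1. Sphk2 had 8.01 and 9.15 FPKM in JIB-04 1 and 2, against 7.56 and 7.64 in untreated 1 and 2. Thra had 1.63 and 1.78 in JIB-04 1 and 2, against 1.84 and 1.61 in untreated 1 and 2. JIB-04 2 held 1.14 times the Sphk2 RNA and 1.09 times the Thra RNA of JIB-04 1. For Dbp it was 1.81 times and for Nr1d1 2.47 times. Reads in the shared bases may count for both genes, and their part in the Dbp and Nr1d1 values was not tested. Of the 100-base stretches of Noct transcripts 26.2% also occur in transcripts of other genes, so the Noct level is uncertain. Hlf, Per1, Per2, Per3, Cry1 and Clock share no such stretch with another gene.

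Other genes of the clock pathway, a list of cofactors, kinases, ligases and chromatin enzymes, showed no call either. Of 48 tested among 50, limma called 0 higher and 0 lower, where 2.14% of all tested genes were called. At an unadjusted limma p under 0.05 there were 8, with 2 higher and 6 lower. Over all tested genes 15.5% had such a p and 6.47% had one in the lower direction. The median log2 difference of the 48 was -0.0048. The lowest p was that of Ppargc1a, a coactivator of RORs, with 0.860 and 0.715 FPKM in JIB-04 liver, against 1.49 and 1.71 in untreated liver (log2 difference -0.54, adjusted p = 0.126, and 0.0256 with voom, which called it lower). Rack1, a scaffold protein that binds BMAL1, had 76.2 and 77.4 FPKM in JIB-04 liver, against 61.1 and 53.4 in untreated liver (adjusted p = 0.170). Kdm5a, a Jumonji demethylase that in mouse cells coactivates CLOCK and BMAL1, chosen after its values were seen, had 2.77 and 2.30 FPKM in JIB-04 liver, against 2.47 and 2.37 in untreated liver (adjusted p = 0.931). Kdm5b, a Jumonji demethylase of the same list chosen likewise, had 1.88 and 1.90 FPKM in JIB-04 liver, against 1.33 and 1.39 in untreated liver. The Kdm5b groups did not overlap (limma adjusted p = 0.344). Those of Kdm2a, a further Jumonji demethylase of the list, did (limma adjusted p = 0.978).

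Clock-controlled output genes of liver that are not among the 30 had 3 called higher and 1 called lower of 44 tested, in a list chosen with earlier results of these data known, against 1.53% called higher and 0.619% lower over all tested genes, with a median log2 difference of -0.12. Insig2, which holds back cholesterol synthesis and is a REV-ERB target in mouse liver, rose to 96.8 and 105 FPKM in JIB-04 1 and 2, against 41.3 and 37.6 in untreated 1 and 2 (log2 difference 1.34, SE 0.125, limma adjusted p = 0.00528). Cyp2a5, a cytochrome P450 under PAR bZIP control whose reads can be shared with the closely related Cyp2a4, rose to 2134 and 2052 FPKM in JIB-04 liver, against 374 and 446 in untreated liver (adjusted p = 0.000885). Lpin1, a phosphatidate phosphatase, fell to 4.93 and 6.91 FPKM in JIB-04 liver, against 17.96 and 21.99 in untreated liver (adjusted p = 0.0113). Hsd3b5, chosen after its values were seen, had the most negative difference of the list, with 15 and 52 reads in JIB-04 liver, against 227 and 921 in untreated liver (log2 difference -2.58, SE 0.757, adjusted p = 0.294). The calls for Insig2, Cyp2a5 and Lpin1 were all lost without JIB-04 1 and without JIB-04 2 (limma adjusted p from 0.0570 to 0.0955).

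Of 26 tested genes that answer corticosteroids, feeding or heat, the signals that set liver rhythms from outside, 2 rose and 1 fell, where 2.14% of all tested genes were called. This list too was chosen with earlier results known. The heat shock genes Hspa1b and Hspa1a, near-identical copies whose reads can be split between them, rose to 6.03 and 3.55 FPKM for Hspa1b and 2.03 and 1.40 for Hspa1a in JIB-04 1 and 2, against 0.963 and 1.28 for Hspa1b and 0.331 and 0.366 for Hspa1a in untreated 1 and 2 (limma adjusted p = 0.0407 and 0.0387). Zbtb16, a zinc finger repressor induced by corticosteroids, fell to 0.711 and 0.438 FPKM in JIB-04 liver, against 1.91 and 2.42 in untreated liver (adjusted p = 0.0351). The calls for Hspa1a, Hspa1b and Zbtb16 were lost whichever of the 4 libraries was left out (adjusted p from 0.0604 to 0.200).

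**Figure D4:**
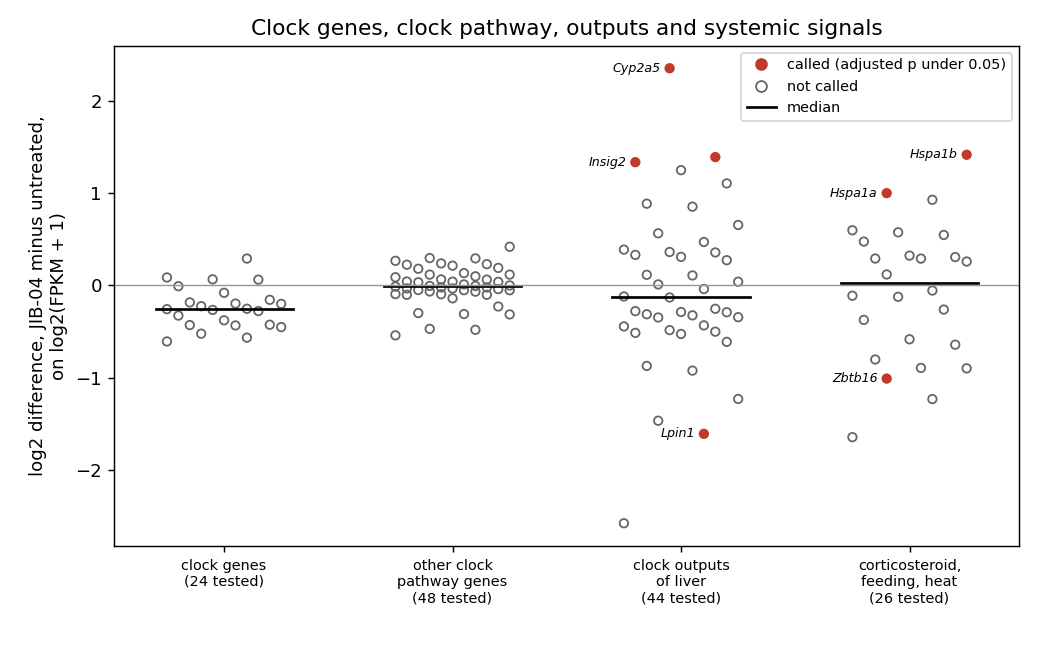
Log2 difference of JIB-04 minus untreated liver on the log2(FPKM + 1) scale for the tested genes of each list, with called genes filled in red, those described in the text named, and medians as black bars. The 24 clock genes lie between -0.61 and 0.29 with 0 called, while 4 of 44 liver outputs and 3 of 26 systemic signal genes were called.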

How the data were processed

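FPKM values of every gene, made by the authors, were deposited in 1 table with gene lengths and coordinates. The submitters' processing notes name GRCm39 (mm39); no source used here gives aligner, counter, annotation release or strand. Trizol extraction and commercial library preparation are from the labels' protocols. FPKM times gene length was divided by its smallest value above 0 in each library, taken as 1 read. This gave whole reads for 100% of values (tolerance 0.01). Limits from a count of 0 cover counting error only. Genes averaging 1 FPKM or more were tested on log2(FPKM + 1), which understates changes of low genes, by limma 3.58.1 in R 4.3.3 (trend and robust moderation, 2 residual degrees of freedom), adjusted over all 10819 genes. Voom on the recovered reads called 550 genes in all. The fit was tested on simulated data with changes larger than those fitted for the clock genes. That test does not show how often smaller changes are found. Every clock gene is named; in the other lists, every called gene or, with none called, the 4 of lowest p, except 3 genes that are not reported here. Promoters printed are those of the 4 clock genes of lowest p that hold a searched motif, plus Arntl. Members and lists were chosen with earlier results of these data known. Shared stretches and exon overlaps are from GENCODE M21 (GRCm38), by gene ID.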

Additional observations from a re-analysis of the deposited data

How the results depend on the processing

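No clock gene was called higher in any of the 16 alternatives, and with each library left out in turn the number called lower was 0 to 0. It was 1 with a mean of at least 5 FPKM (Hlf), 3 with voom on recovered reads (Hlf, Per1 and Usp2) and 2 at an adjusted p under 0.1 (Hlf and Per1). Fitted differences were below 0 for 19 of 24 clock genes with each library left out in turn, and for 20 of 24 in every scaling and pseudocount alternative, where the median of the clock genes ran from -0.34 to -0.27 and that of all genes from -0.045 to 0.0086. With each library left out in turn, uncalled log2 differences turned sign for 7 genes: they ran from -0.50 (without JIB-04 2) to 0.63 for Nr1d1, -0.064 to 0.048 (without JIB-04 1) for Nr1d2, -0.63 to 0.18 (without JIB-04 1) for Dbp, -0.34 to 0.032 (without untreated 2) for Noct, -0.74 to 0.34 (without JIB-04 2) for Bhlhe40, -0.021 (without untreated 2) to 0.15 for Csnk1d, and -0.22 to 0.061 (without JIB-04 2) for Fbxw11. Uncalled differences also shrank for Wee1 (-0.010 without JIB-04 2), Rora (-0.16 without JIB-04 2), Per2 (-0.091 without untreated 2) and Per3 (-0.049 without untreated 2).

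The median of the dawn genes was -0.023 with no filter, when Arntl and Npas2 entered. Without each library in turn it ran from -0.39 to -0.056, that of the light phase genes from -0.48 to -0.15 and that of the dusk genes from -0.54 to -0.20.

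Counts over all genes were 20 higher and 0 lower with no filter, 349 and 201 with voom, 294 and 170 at an adjusted p under 0.1, and from 22 to 107 higher and 1 to 54 lower without each library. Other clock pathway genes called lower numbered 1 with voom (Ppargc1a). Liver outputs called higher and lower numbered 1 and 0 with no filter, 7 and 2 with voom and 7 and 2 at an adjusted p under 0.1, and 0 to 4 and 0 to 3 without each library; 2 were lower with a mean of at least 5 FPKM and with rescaling without the 50 most abundant genes. Systemic signal genes called higher and lower numbered 0 and 0 with no filter and 0 and 0 with at least 5 FPKM, 0 to 0 and 0 to 2 without each library, 1 higher with quantile normalization and 1 without moderation, and 2 lower with voom and 2 at an adjusted p under 0.1. The cause of these moves was not tested.

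With the replicate number as a block, 0 clock genes were called, genes called lower over all numbered 121, liver outputs 7 higher and 4 lower, and systemic genes 2 lower. The libraries share only a number: the differences between mice 1 and 2 of each group correlated at r = -0.05 across genes, which are not independent replicates. Leaving out a library assumes that the lone mouse varies like the other group. Arntl, Npas2, Arntl2, Bhlhe41 and Rorb had at most 53 reads per library, and stayed outside the test.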
